A study of Mus musculus with 3 samples.

Results

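The genes described here encode chemokines, a chemokine receptor and a macrophage growth factor: Csf1, Cxcl1, Cxcl2, Cxcl12, Cxcr4, Ccl2, Ccl7, Ccl20 and Cx3cl1, which are 9 of 21887 protein-coding genes in the annotation used. They were picked by name, with earlier results of these data known. Each was described by the H3K4me3 peaks that overlapped the gene or the 5 kb on either side of it in mm10. Trimethylation of histone H3 on lysine 4 (H3K4me3) was mapped by ChIP-seq, in which chromatin carrying the mark is pulled down with an antibody and sequenced. The cells were granulosa cells, the somatic cells that line the ovarian follicle, from wild type C57BL/6 females on postnatal days 21 to 28. All mice had received 4 IU of eCG, a gonadotropin that drives follicle growth. The 0 h cells were taken before hCG, and the 4 h and 12 h cells at those times after 5 IU of hCG, which acts on the LH receptor to trigger ovulation and luteinization. There was 1 library per time, and the sources used here do not give the number of mice behind each, so no difference could be tested against the spread between replicates. Cells were freed by puncturing follicles, so other cells of the ovary can be present. In such bulk material a change in the share of cells that carry a mark and a change in every cell cannot be told apart.

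H3K4me3 is laid down around the start sites of genes that are transcribed or held ready for transcription, and wide domains of it are typical of strongly active or cell-identity genes. Chemokines are small secreted proteins that bind G protein-coupled receptors on leukocytes and other cells and direct their movement. CSF1 is the growth and survival factor of macrophages and signals through the receptor tyrosine kinase CSF1R. Ovulation resembles an inflammatory reaction, in which leukocytes enter the follicle wall and the forming corpus luteum. The comparisons ask which of these signalling genes carried the promoter mark before the ovulatory signal, and which carried it after.

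Promoter sequences are shown for 6 of the 9 genes, so that their motifs can be read beside the marks. Ccl20 is shown although it had no peak, and Cx3cl1, which had peaks, is not shown. The RefSeq promoter table (GRCm38.p6, the same assembly as mm10) holds 7 of the 9 genes, and has no entry for Ccl2 and Ccl7. Each sequence runs 5′ to 3′ along the gene's own strand from 250 bases before the annotated start to base 50 of the gene. The first 4 are Csf1 (chr3:107760420-107760719, minus strand), Cxcl1 (chr5:90890995-90891294, plus strand), Cxcl2 (chr5:90903649-90903948, plus strand) and Ccl20 (chr1:83116516-83116815, plus strand), with matches to the kappaB consensus, the site bound by NF-kappaB factors, in capitals.
Csf1: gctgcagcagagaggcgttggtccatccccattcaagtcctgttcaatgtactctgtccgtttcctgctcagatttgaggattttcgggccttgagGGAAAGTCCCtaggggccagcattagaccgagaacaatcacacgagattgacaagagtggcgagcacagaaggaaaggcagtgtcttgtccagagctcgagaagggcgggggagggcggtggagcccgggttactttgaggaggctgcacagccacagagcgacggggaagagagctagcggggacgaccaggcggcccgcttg
Cxcl1: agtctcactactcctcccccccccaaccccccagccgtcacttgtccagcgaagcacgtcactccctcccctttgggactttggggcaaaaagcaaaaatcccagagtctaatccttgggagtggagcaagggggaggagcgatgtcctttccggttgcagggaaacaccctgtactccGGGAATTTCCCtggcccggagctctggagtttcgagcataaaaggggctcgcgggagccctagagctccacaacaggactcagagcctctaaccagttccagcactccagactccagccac
Cxcl2: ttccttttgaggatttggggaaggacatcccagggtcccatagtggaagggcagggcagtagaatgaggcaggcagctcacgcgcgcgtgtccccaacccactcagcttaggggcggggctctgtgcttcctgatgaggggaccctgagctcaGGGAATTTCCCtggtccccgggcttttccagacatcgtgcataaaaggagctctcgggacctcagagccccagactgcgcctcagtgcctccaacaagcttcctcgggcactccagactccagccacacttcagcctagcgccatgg
Ccl20: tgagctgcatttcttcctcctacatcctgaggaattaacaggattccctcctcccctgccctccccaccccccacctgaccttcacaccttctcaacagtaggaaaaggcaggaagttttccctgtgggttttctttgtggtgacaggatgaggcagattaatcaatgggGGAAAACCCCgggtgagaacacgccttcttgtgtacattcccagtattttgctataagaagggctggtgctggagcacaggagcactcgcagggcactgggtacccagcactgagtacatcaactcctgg

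The other two are Cxcl12 (chr6:117168285-117168584, plus strand) and Cxcr4 (chr1:128592250-128592549, minus strand). Here capitals mark the GC box GGGCGG, the core of sites bound by Sp1 family factors, on either strand.
Cxcl12: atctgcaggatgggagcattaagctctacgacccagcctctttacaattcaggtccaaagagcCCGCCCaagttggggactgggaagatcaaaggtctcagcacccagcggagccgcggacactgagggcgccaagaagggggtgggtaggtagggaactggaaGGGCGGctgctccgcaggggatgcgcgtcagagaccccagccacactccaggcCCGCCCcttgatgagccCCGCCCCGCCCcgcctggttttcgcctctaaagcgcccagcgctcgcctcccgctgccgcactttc
Cxcr4: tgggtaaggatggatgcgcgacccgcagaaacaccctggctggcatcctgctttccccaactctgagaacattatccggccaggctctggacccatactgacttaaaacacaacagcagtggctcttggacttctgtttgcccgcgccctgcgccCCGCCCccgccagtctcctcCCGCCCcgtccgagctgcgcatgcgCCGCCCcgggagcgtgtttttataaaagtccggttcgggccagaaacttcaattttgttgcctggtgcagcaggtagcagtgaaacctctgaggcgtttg

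The kappaB consensus was found in 4 of the 7 promoters (Csf1, Cxcl1, Cxcl2 and Ccl20), and in 4.51% of all 32851 promoter entries. Cxcl1 and Cxcl2, which encode neutrophil attractants, held the same palindrome GGGAATTTCCC, matched on both strands in an overlap, from 71 to 61 bases before the Cxcl1 start and from 97 to 87 bases before the Cxcl2 start. The matches in Csf1 and Ccl20 lay on the opposite strand, 154 to 145 and 80 to 71 bases before the start. A match was thus held by Ccl20, which had no peak at any time, as well as by the marked genes Csf1, Cxcl1 and Cxcl2. The GC box was found in Csf1, Cx3cl1, Cxcl12, Cxcl2 and Cxcr4, that is in 5 of 7, and in 35.7% of all entries. Cxcl12 had 5 matches to it, 2 of them overlapping by 1 base, and Cxcr4 had 3. Matches to the cyclic AMP response half-site TGACG were found in Cxcl1 and Cxcl12 (20.8% of all entries) and to the TATA box TATAAA in Cx3cl1 and Cxcr4 (13.6%). No match to the AP-1 site TGANTCA or to the C/EBP site TTGCNNAA was found in these 7 windows, and 7.81% and 10.8% of all entries held one. All motifs were searched on both strands, and a match describes letters alone.

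Before hCG, 3 of the 9 genes carried the mark, and 4 h after it 6 did. The genes without a peak at 0 h and with one at 4 h were Csf1, Cxcl12 and Cxcl2. At 12 h Csf1 and Cxcl12 had a peak, at Cxcl12 in another place than at 4 h, and Cxcl2 had none, so that 5 genes were marked. Cxcl1, Cxcr4 and Cx3cl1 had a peak at all 3 times, and the CC chemokine genes Ccl2, Ccl7 and Ccl20 had none at any time. Across all protein-coding genes 56.3%, 58.3% and 56.2% were marked at 0 h, 4 h and 12 h by the same rule. Of them 53.0% were marked at all 3 times and 39.3% at none.

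**Figure D1:**
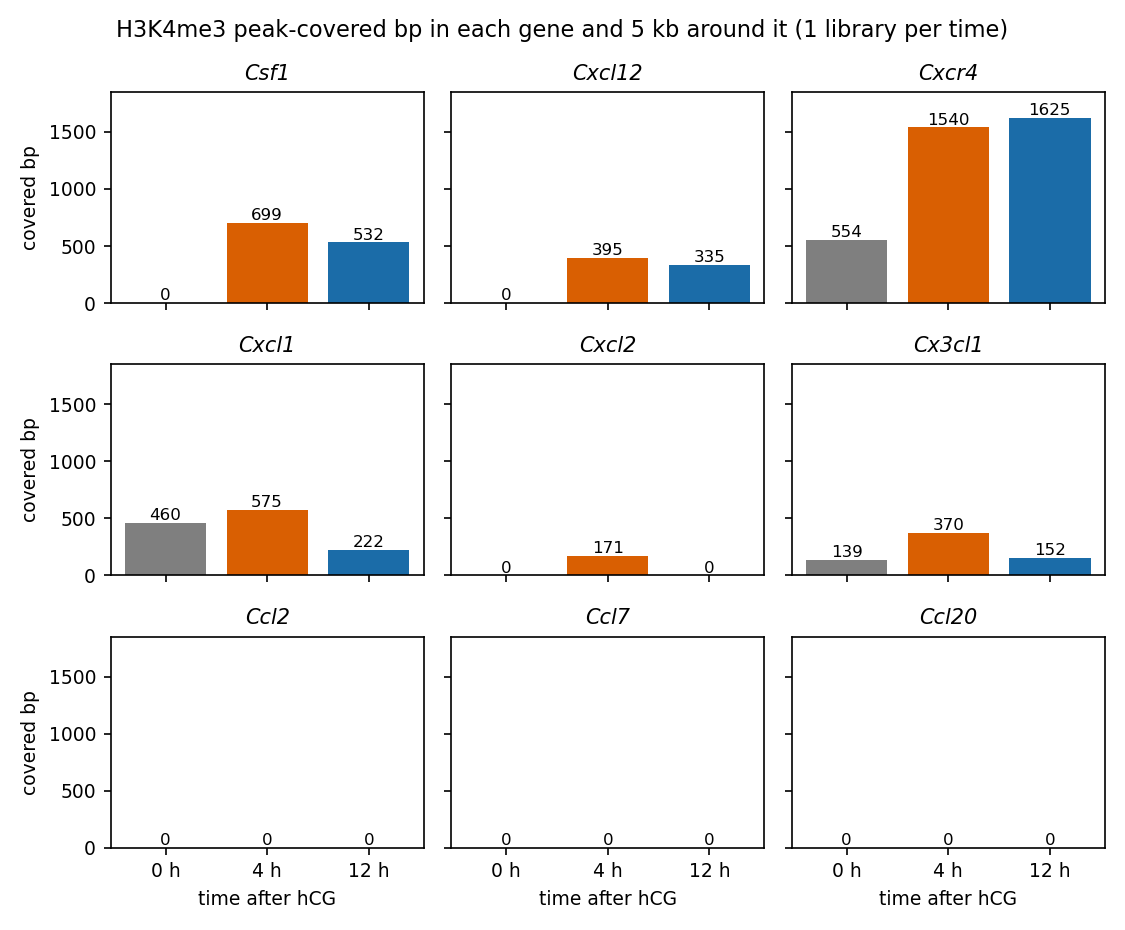
Bars give the bp covered by H3K4me3 peaks in each gene and the 5 kb on either side of it, at 0 h, 4 h and 12 h, with 1 library per time and no error bars. All 6 marked genes have their lowest or an equal lowest bar at 0 h except Cxcl1, whose lowest value is 222 bp at 12 h, and Ccl2, Ccl7 and Ccl20 stay at 0.

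The covered length is the number of bp of this window under peaks. Windows ran from 11814 bp at Ccl7 to 29422 bp at Csf1. All 20 peaks found in them lay within 2 kb of the annotated start, so covered lengths of different genes are compared over stretches of equal size around the start. Of these peaks 17 lay wholly downstream of the start, 2 held it and 1 lay wholly upstream. The lists held 22236, 23662 and 20669 peaks at 0 h, 4 h and 12 h, with median widths of 306, 315 and 333 bp, and the narrowest peaks were 136, 139 and 152 bp wide. The lists give no read depth, height or score, so a missing peak means that none was called, not that the mark was absent.

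Csf1 had no peak at 0 h, 699 covered bp at 4 h and 532 bp at 12 h. Its larger 4 h peak, of 553 bp, lay at chr3:107759652-107760204, from 265 to 817 bp downstream of the start, and a second one of 146 bp covered bases 21 to 166 downstream and reached 29 bases into the promoter sequence shown. The single 12 h peak of 532 bp lay at chr3:107759644-107760175, and 98.5% of its bases were also covered at 4 h. At 0 h the closest peak to Csf1 was 44.6 kb away and overlapped Ahcyl1, inside a peak-free stretch of 199 kb. The long noncoding RNA gene Gm40121 (chr3:107696225-107812951) spans the whole of Csf1, and that 0 h peak overlapped an end of it. The 4 h and 12 h peaks lay inside both genes, beside the Csf1 start and away from the ends of Gm40121. Overlap alone does not assign them to Csf1.

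Cxcl12 encodes a chemokine that guides blood cell precursors and endothelial cells and is made mainly by stromal cells. It had 0, 395 and 335 covered bp at 0 h, 4 h and 12 h. The 4 h peaks, 256 and 139 bp wide, lay 193 to 448 and 521 to 659 bp downstream of the start. The 12 h peak at chr6:117169223-117169557 lay farther into the gene, 688 to 1022 bp downstream, and shared 0 bp with the 4 h peaks. The smaller 4 h peak had the narrowest width found in that library, and without it, as when narrow peaks were left out or equal numbers of the widest peaks were used, the difference of 12 h minus 4 h was 79 bp in place of -60 bp. Before hCG no peak was called within 495 kb of this gene, in a peak-free stretch of 1043 kb.

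Cxcr4 encodes the G protein-coupled receptor through which CXCL12 attracts cells. It was the widest of the 9 at every time, with 554, 1540 and 1625 covered bp. At 0 h there were 2 peaks of 272 and 282 bp, 268 bp apart. At 4 h a peak of 1098 bp at chr1:128590643-128591740 and one of 442 bp were 57 bp apart, and at 12 h 1 peak of 1625 bp ran from 69 to 1693 bp downstream of the start (chr1:128590606-128592230). Both later domains contained all 554 bp covered at 0 h, and 99.4% of the 4 h bases were covered at 12 h. In its own library the 12 h peak was at the 99.8th percentile of width, against 95.6 for the larger 4 h peak and 42.5 and 44.8 for the 0 h peaks. These percentiles depend on the gaps, since with peaks within 1 kb joined Cxcr4 had 822, 1597 and 1625 bp at 0 h, 4 h and 12 h. The difference of 4 h minus 0 h was then 775 bp in place of 986 bp. The covered length was larger by 1.48 on the log2 scale at 4 h than at 0 h, and by 1.55 at 12 h than at 0 h, while the median over all genes marked at both times was 0.12 and -0.02.

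Ackr3, which is no member, encodes the other receptor of CXCL12, a scavenging receptor that does not couple to G proteins. It had 619 covered bp at 0 h, 351 bp at 4 h and 0 bp at 12 h. Its 0 h peak lay 130 to 748 bp downstream of the start. Covered length thus ran in opposite directions over the 3 libraries at the 2 receptor genes, with no replicate to test the difference. Of the 5 other chemokine receptor genes marked at any time, Ccrl2 had 568, 1139 and 1169 bp and Ccr10 had 408, 957 and 1854 bp, larger at each later time as at Cxcr4. Ackr3, Cxcr5 and Xcr1 had less at each later time. Ccr10, Cxcr5 and Xcr1 had other protein-coding genes in their windows. Among all other genes, those whose covered lengths were closest to those of Cxcr4, by the sum of absolute differences over the 3 libraries, were Mrfap1 (142 bp), 9130008F23Rik (240 bp) and Pcyt1a (248 bp).

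**Figure D2:**
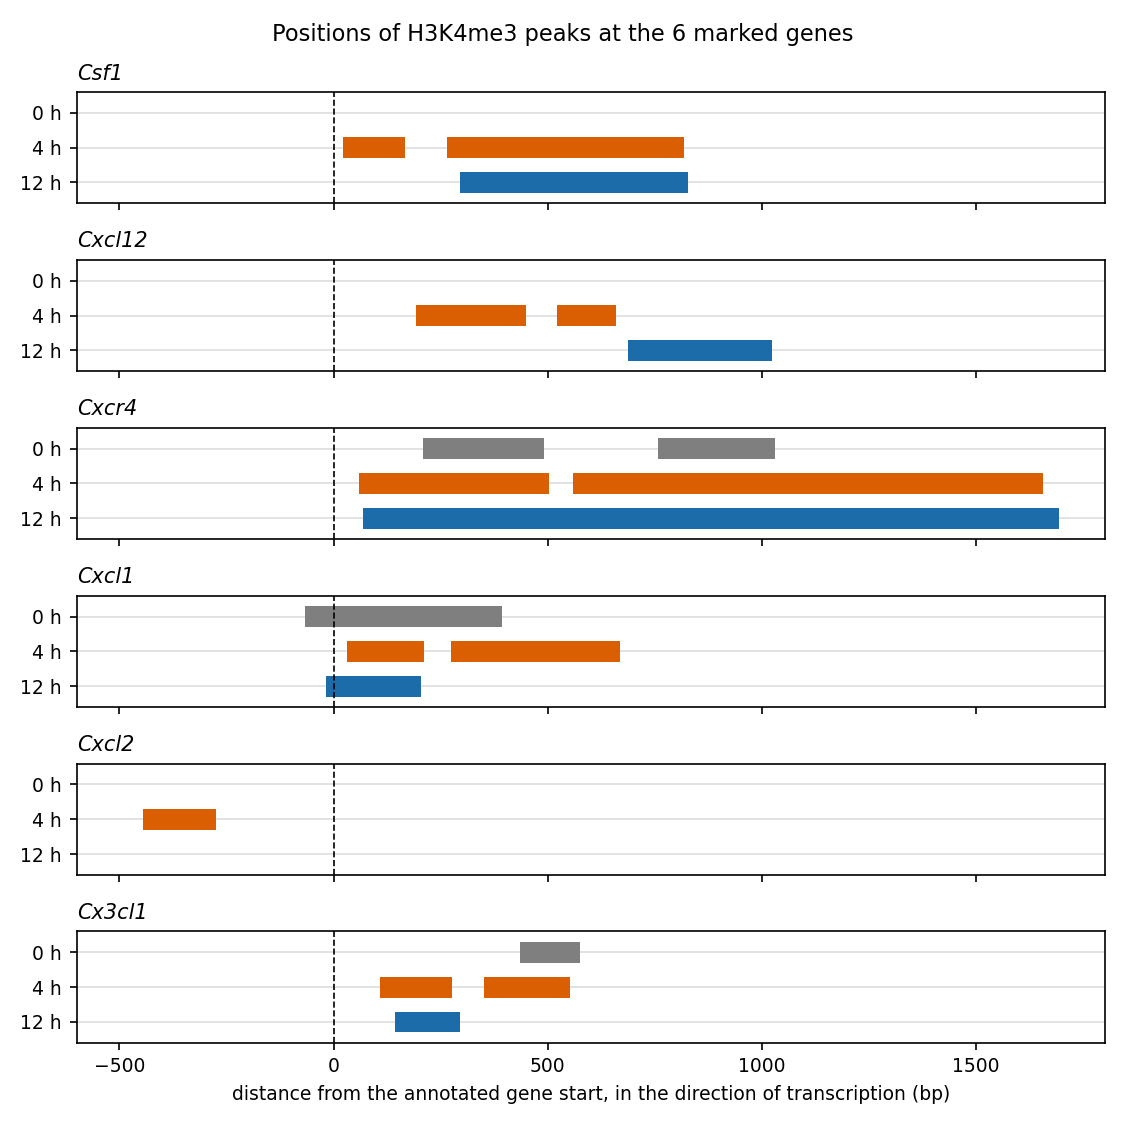
Boxes are the H3K4me3 peaks at the 6 marked genes, placed by distance in bp from the annotated start (dashed line) in the direction of transcription, with rows for 0 h, 4 h and 12 h. The peaks lie just downstream of the start except at Cxcl1, where 2 hold it, and at Cxcl2, where the peak ends 275 bp before it, and the Cxcl12 peaks of 4 h and 12 h do not overlap.

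Cxcl1 and Cxcl2 lie next to each other on chromosome 5, 10.8 kb apart, and their products attract neutrophils through CXCR2. Cxcl1 had 460, 575 and 222 covered bp at 0 h, 4 h and 12 h. Its 12 h peak began at position -19 relative to the start. The 0 h peak, chr5:90891177-90891636, began at position -68, within the kappaB palindrome. At 4 h there were 2 peaks, 30 to 209 and 273 to 667 bp downstream, so the start itself was not covered. All 222 bp covered at 12 h had been covered at 0 h. The difference of 12 h minus 0 h was -238 bp, the only negative one among the 5 genes marked at either of these times. The difference of 4 h minus 0 h was 115 bp, and with peaks below the 25th width percentile of each library left out it was -65 bp.

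Cxcl2 had 1 peak in all, of 171 bp at 4 h, and 0 bp at 0 h and 12 h. That peak, chr5:90903454-90903624, lay at positions -445 to -275 relative to the start, outside the promoter sequence shown. The nearest peak was that of Cxcl1 at the other times, 12.5 kb away at 12 h and 12.3 kb away at 0 h. Its width was at the 20th percentile of the 4 h library, and it was gone when peaks below the 25th percentile (187 bp at 4 h) were left out. Both promoters share a run of 20 bases downstream of the start. The sources used here do not say how reads that map to both paralogs were treated, so calls at this pair are uncertain in that respect.

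The cluster of 7 CXC ligand genes from Cxcl5 to Cxcl2 spans 147 kb (chr5:90759298-90905938). It held 1 peak at 0 h, 4 at 4 h and 2 at 12 h, with 460, 885 and 392 covered bp. Besides those at Cxcl1 and Cxcl2, the peaks lay at Cxcl5, another neutrophil attractant, with 0, 139 and 170 bp. The 4 h value there was the narrowest width of that library. No peak was called at Cxcl3, Cxcl15, Pf4 or Ppbp at any time, or at Cxcr2.

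Cx3cl1 encodes fractalkine, a membrane-anchored chemokine that holds monocytes through CX3CR1. It had 139, 370 and 152 covered bp at 0 h, 4 h and 12 h. The 12 h peak lay 144 to 295 bp downstream of the start and the 0 h peak 435 to 573 bp downstream, and they shared 0 bp. At 4 h 2 peaks of 170 and 200 bp lay over both places. The 12 h value was the narrowest width in its library and the 0 h value was close to the narrowest in its own, 136 bp. With peaks below the 25th width percentile of each library left out (182, 187 and 211 bp), 200 bp at 4 h remained and nothing at the other times. When each library was cut to its 20669 widest peaks, the 0 h peak dropped out too, which gave 0, 370 and 152 bp. The narrowest 0 h peaks kept in that cut were also 139 bp wide, so it dropped out by its order among ties.

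The 3 CC chemokine genes had no peak in any library. Their products attract monocytes (CCL2 and CCL7, through CCR2) and dendritic cells and lymphocytes (CCL20, through CCR6). Ccl2 and Ccl7 lie 8.26 kb apart on chromosome 11 in a cluster of 6 CC ligand genes (chr11:82035577-82179812), and this whole cluster held 0 peaks at 0 h, 4 h and 12 h. The stretch without a peak around it was 1953 kb long in each library, and the closest peak to Ccl2, at Cct6b, lay 727 kb away. At Ccl20 the peak-free stretch was 121 kb at 0 h, 4 h and 12 h, with the closest peak 40.6 kb away at Daw1. The CCR2, CCR6 and CX3CR1 genes and Csf1r had no peak either, and neither had Il34, the gene of the second CSF1R ligand.

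The promoters of these genes differed in base composition. The dinucleotide CpG, at which promoters of widely used genes are rich, occurred 20 times in the windows of Cxcl12 and Cxcr4, 19 times in Cx3cl1, 16 in Csf1, 11 in Cxcl2, 10 in Cxcl1 and 3 in Ccl20. The median over all entries was 7. Ccl20, the one gene of the 7 with no peak at any time, had the fewest, and its GC content of 52.7% was that of the median entry. At 0 h Cxcl12 (20), Csf1 (16) and Cxcl2 (11) had no peak either, while Cxcr4 (20), Cx3cl1 (19) and Cxcl1 (10) had one. Of entries with 3 to 6 CpG 9.04%, 9.80% and 8.85% had a peak within 2 kb of the start at 0 h, 4 h and 12 h. For 7 to 19 CpG, the class of Csf1, Cxcl1, Cxcl2 and Cx3cl1, these shares were 48.4%, 50.2% and 47.8%, and for 20 or more they were 83.4%, 85.6% and 83.9%.

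Between 0 h and 4 h, 3 of the 6 genes without a mark acquired one, beside 7.87% of all genes not marked at 0 h, and 0 of 3 lost theirs, beside 2.58%. All 6 genes marked at either time had more covered bp at 4 h than at 0 h, beside 62.0% of all such genes. With peaks below the 25th width percentile left out the count was 4, since Cxcl1 had a difference of -65 bp and Cxcl2 no peak. In that setting 3 genes again gained a mark, but with Cx3cl1 in place of Cxcl2. The summed length over the 9 genes was 3750 bp at 4 h, against 1153 bp at 0 h, of which Cxcr4 made up 1540 bp at 4 h and 554 bp at 0 h. For the 3 genes marked at both times the log2 ratio of 4 h to 0 h was 1.48 at Cxcr4, 1.41 at Cx3cl1 and 0.32 at Cxcl1. The interquartile range of all 12004 such genes lay between -0.16 and 0.42, so Cxcr4 and Cx3cl1 lay above that range and Cxcl1 within it. The 0 h value at Cx3cl1 was close to the narrowest width, on which the size of its ratio depends.

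At 12 h, 1 of the 6 genes marked at 4 h had lost its mark, beside 6.22% of all genes marked at 4 h, and 0 of 3 had gained one, beside 3.59%. Only Cxcr4 of the 6 had more covered bp at 12 h than at 4 h, beside 35.3% of all such genes, and its increase was 85 bp. With narrow peaks left out, or equal numbers of the widest peaks, 2 genes did, Cxcr4 and Cxcl12. The log2 ratio of 12 h to 4 h was -1.37 at Cxcl1, -1.28 at Cx3cl1, -0.39 at Csf1, -0.24 at Cxcl12 and 0.08 at Cxcr4. The interquartile range of the 11964 genes marked at both times lay between -0.43 and 0.12 with a median of -0.14, so Cxcl1 and Cx3cl1 lay below it and the other 3 within it. In those settings the difference of 12 h minus 4 h at Csf1 was -21 bp in place of -167 bp, and that at Cxcl12 was 79 bp.

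Between 0 h and 12 h, 2 of 6 unmarked genes had gained a mark, beside 5.89% of all genes not marked at 0 h, and 0 of 3 had lost one, beside 4.81%. Of the 5 genes marked at either time 4 had more covered bp at 12 h, beside 48.2%, namely Csf1 by 532 bp, Cxcl12 by 335 bp, Cxcr4 by 1071 bp and Cx3cl1 by 13 bp. Marks at 4 h and 12 h but not 0 h, as at Csf1 and Cxcl12, were found for 357 of all genes (1.63%), and marks at 4 h alone, as at Cxcl2, for 396 (1.81%). The labels place the 12 h library in lane 5, apart from the 0 h and 4 h libraries in lane 4. None of its peak names has the tag nolambda, which all names of 0 h and 4 h have. The title of each deposited list, that of 12 h included, does carry nolambda. Time, lane and any difference in peak calling cannot be told apart for 12 h.

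**Figure D3:**
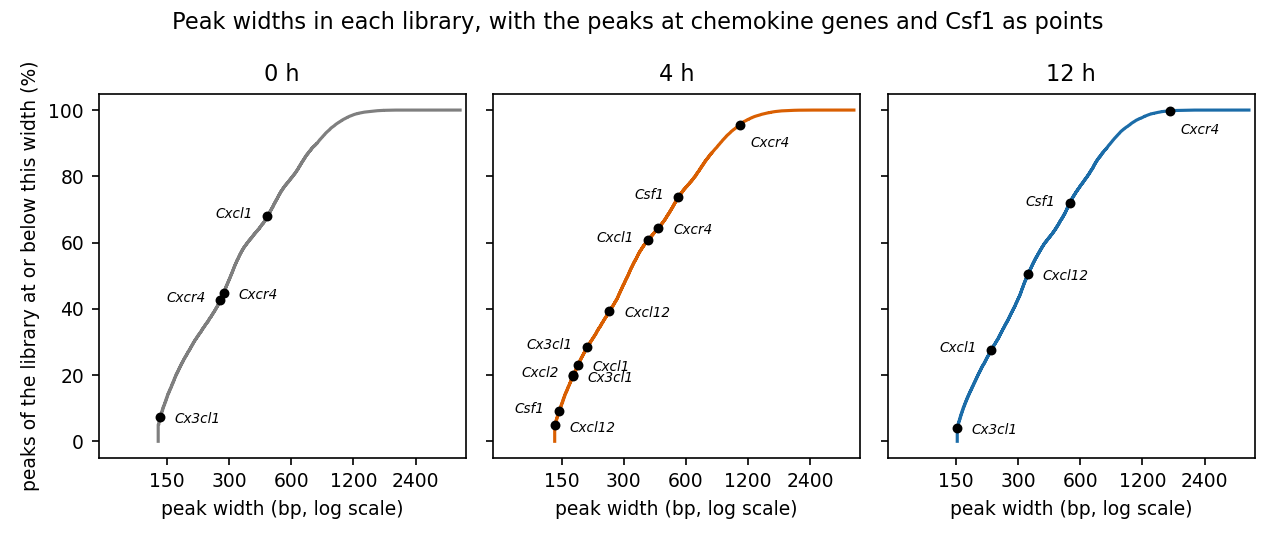
Curves give, for each library, the percentage of its peaks at or below each width (log scale, bp), and points mark the peaks at the chemokine genes and Csf1. Cxcr4 reaches the 99.8th percentile at 12 h, while single peaks of Cxcl12 at 4 h and Cx3cl1 at 12 h sit at the narrowest width of their libraries.

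Most other chemokine genes carried no mark. Of 52 further ligand, receptor and decoy receptor genes found in the annotation, 10, 11 and 8 were marked at 0 h, 4 h and 12 h, and 41 at no time. Of all protein-coding genes 56.3%, 58.3% and 56.2% were marked, and 39.3% at no time. The median covered length of the 52 genes was 0 bp at each time. Among 42 unmarked at 0 h 1 gained a mark at 4 h, Cxcl5, beside 7.87% of all such genes, and none of 10 lost one, beside 2.58%. From 4 h to 12 h 3 of 11 lost theirs (Ackr3, Cxcl9 and Cxcr5), beside 6.22% of all such genes, and none of 41 gained one, beside 3.59%. Of the 11 marked at any time 8 had another protein-coding gene in the window, such as Art3 beside Cxcl9 and Bcl9l beside Cxcr5, so the peak need not belong to the chemokine gene. The 3 without such a neighbour were Cxcl5, Ackr3 and Ccrl2.

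Markers of cell types give the setting of these values, beside marks at 56.3%, 58.3% and 56.2% of all protein-coding genes at 0 h, 4 h and 12 h. Of all protein-coding genes 53.0% were marked at all 3 times and 39.3% at none. Of 15 granulosa markers 12 were marked at each time and 10 at all times, among them Foxl2, Fshr, Nr5a1, Esr2 and Cyp19a1, and Amh had 0 bp throughout. Their summed covered length was 16353, 11856 and 7696 bp at 0 h, 4 h and 12 h. Of the 14 marked at any time 4 had another protein-coding gene in the window, so the peak need not belong to the marker. They were Amhr2, Gata4, Inha and Hsd17b1, and Hsd17b1 had 3146, 1304 and 349 bp of that sum. The mark differed between times at Inha with 780, 995 and 0 bp, Inhbb with 681, 0 and 549 bp, Inhba with 0, 174 and 0 bp, and Wt1 with 0, 0 and 304 bp. Of 17 leukocyte markers 2, 3 and 2 were marked at 0 h, 4 h and 12 h, and 14, including Spi1, Csf1r, Itgam, Adgre1, Lyz2 and Tyrobp, were at 0 bp throughout. Their summed covered length was 1328, 2777 and 1752 bp, from Cd68 and Coro1a, which have other genes in their windows, and from Ptprc with 139 bp at 4 h. That Ptprc peak had the narrowest width of the 4 h library and lay at least 38815 bp downstream of the nearest listed start. Of 12 endothelial markers 2, 3 and 1 were marked, with 522, 665 and 164 bp in sum, and Pecam1, Cdh5, Tek and Tie1 had 0 bp. Kdr had 0, 347 and 164 bp, Erg 0, 170 and 0 bp, Sox18 302, 0 and 0 bp, and Egfl7 220, 148 and 0 bp. Agpat2 lay in the window of Egfl7. Of 11 stromal and theca markers 0, 1 and 1 were marked, with sums of 0, 139 and 192 bp from Myh11 and Pdgfra. The 139 bp at Myh11 at 4 h equalled the narrowest peak width of that library, and Nde1 lay in its window. The sums of the leukocyte and endothelial lists were highest at 4 h, as was the sum over the 9 genes described here, with 1153, 3750 and 2866 bp. The same order held for the other chemokine and receptor genes, with 5238, 7129 and 6122 bp, and for the whole libraries, with 8.87, 10.1 and 8.93 Mb, but not for the granulosa markers. The part of other cell types and of library size in the result was not tested.

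**Figure D4:**
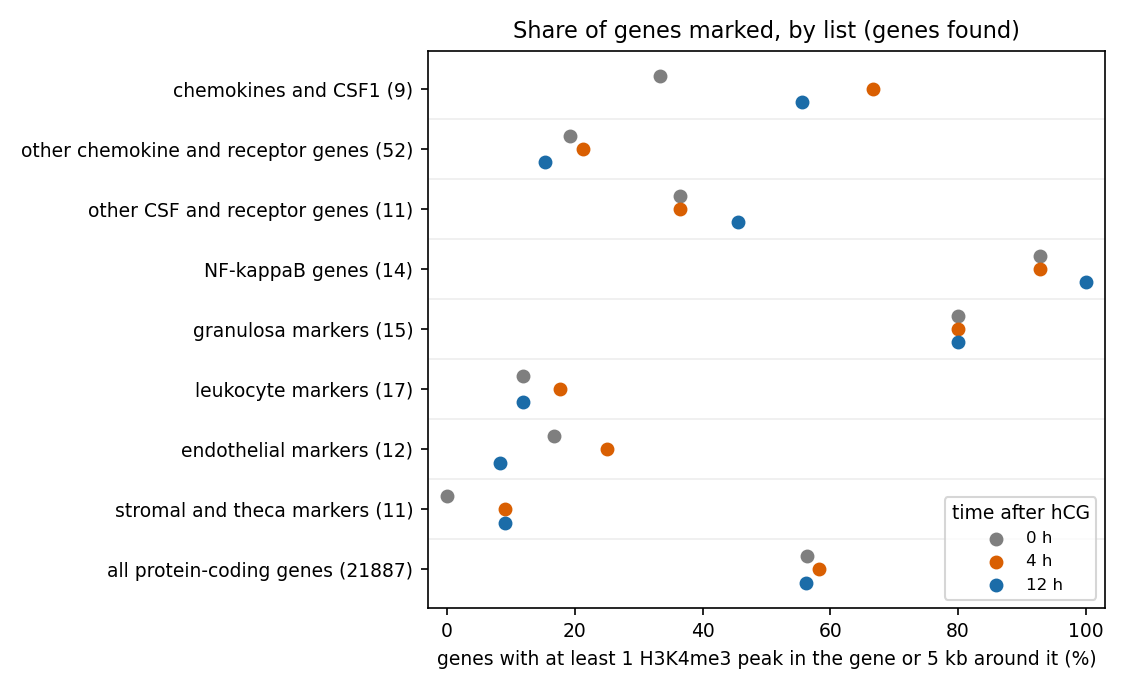
Points give the percentage of genes in each list with at least 1 H3K4me3 peak in the gene or the 5 kb around it at 0 h, 4 h and 12 h, with the number of genes found in brackets. The chemokines and CSF1 stand at 33.3%, 66.7% and 55.6%, the other chemokine and receptor genes at 19.2%, 21.2% and 15.4%, and all protein-coding genes at 56.3%, 58.3% and 56.2%.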

How the data were processed

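The authors deposited 1 list of H3K4me3 peaks per library with chromosome, start, end and name, and no score or depth. The submitters' processing notes name MACS2 2.0.9, Bowtie2 2.2.3, CASAVA 1.8 and the build mm10. The sources used here give neither the threshold for peaks nor whether an input was used. Libraries were amplified for 18 PCR cycles, per the labels' protocols. Peaks on the mitochondrial genome were left out, and starts were converted to count from 1. Gene positions came from the RefSeq annotation of GRCm38.p6, which gives no strand, and starts and strands from its promoter table. A gene was marked when a peak overlapped it or the 5 kb on either side by at least 1 bp. Gains are given per gene not marked at the earlier time and losses per gene marked then. Comparisons of covered length use genes marked at either time or, for log2 ratios, at both. No test was possible with 1 library per time. The counting of marks and covered bp was tested on simulated data. All 9 genes are named. Of the other lists, genes whose mark differed between times, receptor or ligand partners, neighbours within a window and the 3 genes most like the one with the largest range are named by rule, and further ones are examples picked with their values known. The genes and lists were chosen with earlier results of these data known. Alternatives were windows of 2 kb and 10 kb, leaving out peaks below the 25th width percentile, equal numbers of the widest peaks, joining peaks within 1 kb, and an overlap of 100 bp. A window of 2 kb around listed starts was added after the annotation was seen. Python 3.11.15, pandas 2.3.3, NumPy 2.4.6, SciPy 1.17.1 and Matplotlib 3.10.9 were used.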

Additional observations from a re-analysis of the deposited data

How the results depend on the processing

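No paired analysis was possible because there was 1 library per time. Windows of 2 kb and 10 kb, an overlap of 100 bp, and 2 kb around the listed starts (7 genes) gave the same counts and covered lengths. The peaks at these genes all lay within 2 kb of the annotated start, and no peak was narrower than 136 bp. Of these settings, therefore, only the 10 kb window could have given another result. With peaks below the 25th width percentile left out, the summed covered length was 1014, 2944 and 2714 bp at 0 h, 4 h and 12 h, and 2 genes, Cxcr4 and Cxcl12, had more covered bp at 12 h than at 4 h. In that setting the difference of 4 h minus 0 h was -65 bp at Cxcl1, and that of 12 h minus 4 h was 79 bp at Cxcl12. Marks were then found at 2, 5 and 4 of the 9 genes, since the peak of Cxcl2 and those of Cx3cl1 at 0 h and 12 h were left out. The counts of 3 gains from 0 h to 4 h and 1 loss from 4 h to 12 h stayed the same. Cx3cl1 took the place of Cxcl2 in both. With equal numbers of the widest peaks (20669 per library) the sum was 3465 bp at 4 h and 1014 bp at 0 h. Cx3cl1 then had no peak at 0 h, so that 2 genes were marked at that time. Its 0 h peak of 139 bp was tied in width with the narrowest ones kept, and the order among ties left it out. On that tie rest the counts of 4 genes that gained a mark at 4 h and 3 at 12 h, relative to 0 h. Again 2 genes had more covered bp at 12 h than at 4 h, and the Cxcl12 difference was again 79 bp. With peaks within 1 kb joined the summed covered length was 4114 bp at 4 h and 1421 bp at 0 h. Read depth is unknown, so how far it limits the lists cannot be given, and peaks near the narrowest widths (136, 139 and 152 bp) are the least certain.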

Other observations

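Genes of the NF-kappaB pathway, whose factors bind the kappaB consensus, were marked in nearly all cases. Of 14 such genes 13, 13 and 14 had a peak at 0 h, 4 h and 12 h, beside 56.3%, 58.3% and 56.2% of all protein-coding genes. At 9 of the 14 another protein-coding gene lay in the window, so the peak need not belong to the NF-kappaB gene. The exception was Bcl3, a nuclear co-regulator of NF-kappaB, with 0, 0 and 940 covered bp. Nfkbiz, another nuclear regulator of the family and picked after its values were seen, had the most covered bp at 4 h and 12 h, with 1618, 3336 and 2652 bp, and Nfkb2 had 2026, 1049 and 818 bp.

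Of 11 other genes of colony-stimulating factors, stem cell factor, FLT3 ligand and their receptors, 4, 4 and 5 were marked at 0 h, 4 h and 12 h. The shares over all protein-coding genes were 56.3%, 58.3% and 56.2%. Kit, the receptor gene of stem cell factor, had 0, 0 and 174 bp, and the gene of its ligand, Kitl, picked after its values were seen, had 1012, 1354 and 712 bp. The factor genes Csf2 and Csf3 had no peak at any time. The peak counted at Csf3r lay past the end of that gene, at least 22353 bp downstream of its listed start, with Mrps15 in the window. Flt3l, the gene of FLT3 ligand, had the most covered bp of this list at each time. Rpl13a lay in its window, so those peaks need not belong to Flt3l.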
